A study of Homo sapiens with 5 samples.

Results

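NRF2 peaks in SNU638, an established human gastric cancer cell line, nearly always lay on a BRG1 peak at gene starts and did so far less often elsewhere. Within 1 kb of a protein-coding transcription start site (TSS), 4487 of 4727 NRF2 peaks (94.9%) overlapped BRG1 by 1 bp or more, against 543 of 1371 (39.6%) in introns and 422 of 1494 (28.2%) between genes. Of the genes with NRF2 at a TSS, 5447 also had BRG1 there and 82 did not, while 7055 genes had BRG1 without NRF2. BRG1 was at 63.5% of all genes, and its list was much the longer. With only the 8032 highest BRG1 peaks, as many as NRF2 had, the share at a TSS was 64.1%, and 1780 genes had NRF2 alone and 1915 BRG1 alone. The 82 genes included ZNF300 and MGST1, a microsomal glutathione transferase, and the 7055 included GCLM and SLC7A11, both of the glutathione pathway.

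The members were the peaks of the anti-NRF2 library set against those of the anti-BRG1 library. Peaks overlapping a peak of the IgG library named IgG 2 were left out, which took 1013 of 9045 NRF2 peaks (11.2%) and 338 of 48793 BRG1 peaks (0.693%). The comparison therefore held 8032 NRF2 and 48455 BRG1 peaks, of 83512 peaks in the 5 lists of the series. Peaks were ordered within each list by the −log10 q-value of the peak caller, rank 1 being the highest, and no q-value was compared between lists.

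Binding was profiled by CUT&Tag, in which an antibody directs a protein A and Tn5 transposase fusion to cut and tag the DNA around its target. All libraries came from the same cell line, grown with 10% serum in DMEM by the labels and in RPMI by the study's methods, with no gene altered and no drug named in the labels, and about 100000 cells went into each. There was 1 library per antibody (NRF2, BRG1 and ACTL6A) and 2 for IgG, so replicate error is unknown for every value and no p-value is given. The lists hold no read totals, and a site without a peak is a site not called at the depth of its library. By the read totals in the study's methods, the NRF2 library was sequenced more deeply than the BRG1 library, and reads per peak were not analysed here. As a check of the label, 5 of 6 epithelial marker genes (EPCAM, CDH1, KRT8, KRT18 and KRT19, not CLDN4) had BRG1 at a TSS, against 1 of 6 blood cell markers, 3 of 6 stromal and endothelial markers and 63.5% of all genes. With so few markers these counts say little of the identity of the cells. None of these markers had an NRF2 peak there, and a peak at a start is not a measure of expression.

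NRF2, encoded by NFE2L2, is a basic leucine zipper factor that KEAP1 holds at a low level until oxidative or electrophilic stress. It then pairs with a small MAF protein on the antioxidant response element (ARE) and turns on genes for glutathione, thioredoxin, NADPH and detoxification. BRG1, encoded by SMARCA4, is an ATPase of the SWI/SNF complex, which moves nucleosomes and opens promoters and enhancers, and ACTL6A is an actin-related subunit of that complex.

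The sites below show the ARE core, TGACNNNGC, inside the NRF2 peaks at the starts of known NRF2 target genes. The genes were chosen for an NRF2 peak at a start, and each of them also had a BRG1 peak at a start. Of 15 target genes with NRF2 at a TSS, 7 held at least 1 core in that peak, 8 cores in all. Of the 8, 6 lay inside a BRG1 peak as well. The peaks of GCLC, HMOX1 and SRXN1 were among those with 0 cores, a count that holds for this exact pattern only. With the motif site JASPAR, the study reported a sequence near the GCLC start that closely matched the NRF2 motif. How many of all NRF2 peaks hold a core over their whole width was not counted. In 200 bp windows at the starts of 19061 genes the core was in 10.0%, and these 15 peaks were 460 to 1590 bp wide. Each site is read 5′ to 3′ on the strand that carries the core, on GRCh38, with the core in capitals.
NQO1 (chr16:69726997-69727025, minus strand): gcagtcacagTGACTCAGCagaatctgag
TXNRD1 (chr12:104286920-104286948, minus strand): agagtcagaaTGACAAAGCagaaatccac
TXN (chr9:110257070-110257098, plus strand): tgctccagctTGACACAGCggtttagtgc
PRDX1 (chr1:45522007-45522035, plus strand): cccgccggaaTGACTCGGCgctttccctc
PGD (chr1:10398853-10398881, minus strand): agcacctagaTGACATTGCcccggcgagg
SQSTM1, first site (chr5:179819575-179819603, minus strand): tggccaagcgTGACTCAGCagcccaggcg
SQSTM1, second site (chr5:179820543-179820571, minus strand): ggcctggccaTGACTCAGCaatatcctca
CBR1 (chr21:36069855-36069883, minus strand): ccagctagccTGACTTTGCagaacccgca

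The cores of NQO1 and SQSTM1 read TGACTCAGC, which also holds the AP-1 heptamer TGANTCA. The core of PRDX1, a peroxiredoxin that reduces peroxides, was centred 83 bp upstream of the TSS and 54 bp from the NRF2 summit. In NQO1, a quinone reductase, it was 505 bp upstream and outside the BRG1 peak, which ended at 69726987. The core of TXN, thioredoxin, was the other one outside a BRG1 peak, 577 bp upstream.

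Away from any coding TSS or annotated exon, the highest ranked NRF2 peaks with a core within 100 bp of the summit were taken, 3 on BRG1 and 3 without it, to show the 2 classes. The first 3 windows below lay on a BRG1 peak and the last 3 did not. Each spans 200 bases around the NRF2 summit and is given on the plus strand, with the core in capitals as it falls on that strand.
On BRG1, CCDC200 intron, first (chr17:43284405-43284604): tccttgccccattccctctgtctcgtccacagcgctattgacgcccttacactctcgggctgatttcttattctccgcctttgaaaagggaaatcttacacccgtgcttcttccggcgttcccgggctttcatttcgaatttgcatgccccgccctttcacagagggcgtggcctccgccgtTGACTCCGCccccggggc
On BRG1, CCDC200 intron, second (chr17:43300415-43300614): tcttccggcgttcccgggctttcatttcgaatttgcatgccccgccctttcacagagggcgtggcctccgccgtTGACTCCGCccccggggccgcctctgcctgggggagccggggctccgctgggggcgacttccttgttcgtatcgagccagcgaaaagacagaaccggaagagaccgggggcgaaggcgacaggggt
On BRG1, between genes (chr21:7479695-7479894): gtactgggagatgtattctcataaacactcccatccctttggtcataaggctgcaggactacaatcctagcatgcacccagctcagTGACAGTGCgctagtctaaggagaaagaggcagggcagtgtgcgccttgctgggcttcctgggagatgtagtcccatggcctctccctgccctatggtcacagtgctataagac
Without BRG1, between genes near SMC3 (chr10:110536375-110536574): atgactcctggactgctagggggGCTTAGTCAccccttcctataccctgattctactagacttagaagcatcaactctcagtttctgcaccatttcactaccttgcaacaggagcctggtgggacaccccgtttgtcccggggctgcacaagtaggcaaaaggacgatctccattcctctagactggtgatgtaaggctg
Without BRG1, FKBP15 intron (chr9:113188170-113188369): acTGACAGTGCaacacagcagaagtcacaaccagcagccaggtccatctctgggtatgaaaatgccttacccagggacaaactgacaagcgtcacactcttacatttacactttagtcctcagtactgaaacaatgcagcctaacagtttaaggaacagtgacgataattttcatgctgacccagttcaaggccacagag
Without BRG1, between genes (chr22:10633713-10633912): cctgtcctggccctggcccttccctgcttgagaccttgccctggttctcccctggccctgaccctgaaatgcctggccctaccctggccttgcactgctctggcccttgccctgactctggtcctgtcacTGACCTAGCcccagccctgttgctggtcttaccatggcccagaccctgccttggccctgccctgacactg

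The first 2 windows are the upstream regions of U2 small nuclear RNA copies, which form an array inside CCDC200 and encode the RNA that recognizes the intron branch point. They start 76 bp and 184 bp from the annotated 5′ ends of their copies and share a run of 92 identical bases, so reads from one copy could be placed at another. Of 12 U2 copies in the gene, 10 were overlapped by an NRF2 peak on BRG1 and 0 by an NRF2 peak without it. These windows held 16 and 21 CpG sites, and the other 4 windows held 0 to 3. The window on chromosome 22 is a run of short repeats, 83.2 kb from the nearest IgG 2 peak and 1072447 bp from the nearest BRG1 peak.

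NRF2 and BRG1 coincided most at gene starts, and the share was lower in the lowest than in the highest quintile of rank in every place. At a TSS the share of NRF2 peaks on BRG1 was 94.9% (Wilson 95% interval 94.3% to 95.5%), in exons 68.0% (63.5% to 72.1%), in introns 39.6% (37.0% to 42.2%) and between genes 28.2% (26.0% to 30.6%). The difference between TSS and intron was 55.3 percentage points (Newcombe 95% interval 52.6 to 57.9), and that between intron and intergenic peaks was 11.4 points (7.90 to 14.8). These intervals cover counting error only and treat peaks as independent. Over all places, 5751 NRF2 peaks (71.6%) were on BRG1 and 2281 were not.

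By rank, the NRF2 list was cut into quintiles of about 1606 peaks. In the highest quintile 1219 of 1224 TSS peaks (99.6%) were on BRG1, and in the lowest quintile 454 of 553 (82.1%) were. In introns the share went from 83.2% (94 of 113) in the highest quintile through 54.1% in the third to 20.8% (106 of 509) in the lowest. Between genes it was only 41.7% (88 of 211) in the highest quintile and 17.8% (75 of 422) in the lowest. In the highest quintile the intronic share was thus nearer to that at a TSS, and the intergenic share was less than 50%.

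Peak width moved with rank, since the median NRF2 peak was 711 bp wide in the highest quintile and 359.5 bp in the lowest, and a wider peak meets another list more easily. At one rank and place the peaks above the median width of all NRF2 peaks (473 bp) were more often on BRG1 than the others, except in exons in the second quintile. The gap was widest between genes, where 71.3% of the wider and 17.9% of the narrower peaks of the highest quintile were on BRG1, and 57.4% and 20.4% in the second. In introns the shares in the second quintile were 78.0% and 55.1%, and in the third 57.5% and 52.1%. At a TSS they were 99.6% and 99.3% in the highest quintile and 87.6% and 79.7% in the lowest. The narrower intergenic peaks lay between 17.7% and 24.9% in all quintiles and showed no fall with rank, while the narrower intronic ones went from 72.2% (13 of 18) to 18.6%. The part of width in the rank trend was not tested beyond these values.

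**Figure D1:**
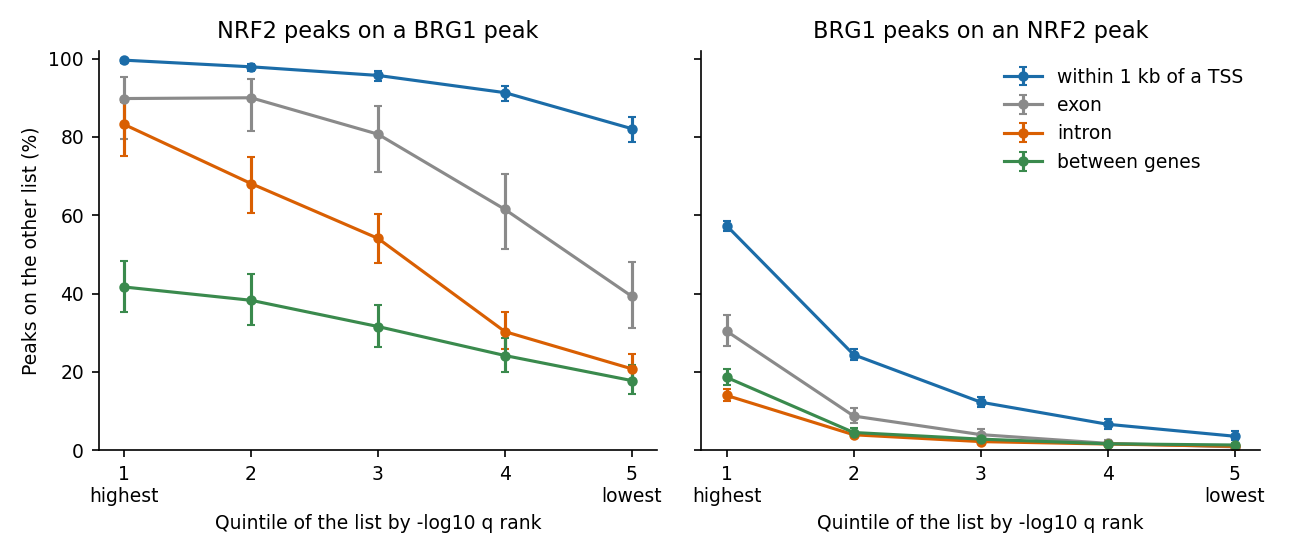
Share of peaks (%) that shared at least 1 bp with a peak of the other list, by quintile of the list's own −log10 q rank, for NRF2 peaks (left) and BRG1 peaks (right), with Wilson 95% intervals. NRF2 peaks at a TSS stay between 82.1% and 99.6%, intronic ones fall from 83.2% to 20.8%, and BRG1 peaks at a TSS fall from 57.3% to 3.6%.

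Many peaks away from coding starts lay at starts of long noncoding RNA genes, and their share was nearer to that of coding starts. Of 409 NRF2 peaks away from a coding TSS but within 1 kb of an lncRNA start, 332 (81.2%, 77.1% to 84.7%) were on BRG1. Of the other 2896, 932 (32.2%, 30.5% to 33.9%) were. Between genes the 2 shares were 86.2% (69 of 80) and 25.0% (353 of 1414).

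The low intergenic share went with closeness to IgG 2 peaks, although peaks overlapping one had been left out. Of the 1072 intergenic NRF2 peaks without BRG1, 528 (49.3%, 46.3% to 52.2%) lay within 100 kb of an IgG 2 peak, against 55 of 422 (13.0%, 10.2% to 16.6%) of those on BRG1. At a TSS both shares were low, 3.75% without BRG1 and 3.63% with it.

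In the highest quintile between genes, 73 of 94 NRF2 peaks (77.7%) farther than 100 kb from any IgG 2 peak were on BRG1, and 15 of 117 (12.8%) within 100 kb were. Near IgG 2 the share stayed between 6.90% and 12.8% in all quintiles. Far from it the share fell from 77.7% to 20.9%, close to the intronic course of 85.3% to 21.1%. Taken over all ranks, the intergenic and intronic shares far from IgG 2 were both 40.3%, so the gap of 11.4 points between these places was not seen there.

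The 10 windows of 2 Mb with the most NRF2 peaks without BRG1 held 261 of all 2281 (11.4%). In the first of them, chr5:48000001-50000000, there were 34 NRF2, 0 BRG1 and 69 IgG 2 peaks. In chr10:40000001-42000000 there were 32, 2 and 94. Whether NRF2 peaks in these windows are binding or background was not tested.

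**Figure D2:**
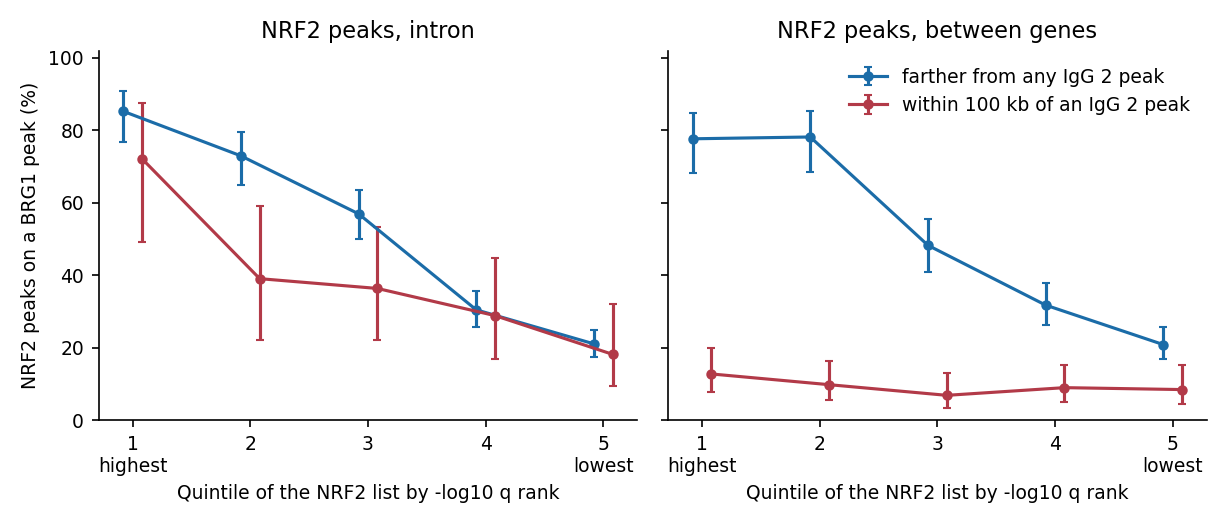
Share of NRF2 peaks (%) on a BRG1 peak in introns (left) and between genes (right) by quintile of NRF2 rank, for peaks within 100 kb of an IgG 2 peak and farther away, with Wilson 95% intervals. Between genes the near peaks stay between 6.90% and 12.8% while the far peaks start at 77.7%.

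Summit distances were taken only where an NRF2 peak overlapped a BRG1 peak, each such NRF2 peak giving a single pair. These NRF2 peaks were a median of 546 bp wide, so the overlap rule itself keeps the summits near each other. Whether the summits lay closer than overlap alone would give was not tested. Over 5751 pairs the median distance between summits was 124 bp (quartiles 47.0 and 230.0 bp), and 43.4% were within 100 bp. The median was 123 bp at a TSS, 135 bp in introns and 109 bp between genes. A single BRG1 peak was the partner of 5257 NRF2 peaks, 489 had 2 and 5 had 3 or more. At a TSS BRG1 covered a median of 86.6% of the NRF2 peak, and in introns 65.8%.

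Stronger NRF2 peaks had stronger BRG1 partners. In the highest NRF2 quintile the partner lay at a median of the top 5.54% of the BRG1 list (quartiles 1.79% and 12.4%), and in the lowest quintile at the top 23.9% (12.0% and 45.2%). Across the 5751 pairs Spearman's rho of the ranks was 0.43, and it was 0.42 in introns and 0.35 between genes. These are descriptions across peaks of 1 library each, which share mapping, base composition and chromatin.

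NRF2 peaks without BRG1 were narrower, ranked lower and more often off the start itself. At a TSS their median width was 382 bp against 567 bp on BRG1, and their median rank was 5922 against 3046. Summits on BRG1 had a median position of −8 bp from the start, negative being upstream (quartiles −155 and 109 bp), and 74.2% lay within 250 bp. Those without BRG1 had a median 166 bp downstream (quartiles −114 and 569 bp), and 96 of 240 lay within 250 bp. Of the latter, 30.4% lay from 400 to 1000 bp downstream, against 5.15% of those on BRG1.

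A TSS peak without BRG1 was rarely far from it. The median gap to the nearest BRG1 peak was 0.692 kb, and 135 of 240 (56.2%) were within 1 kb. In 168 of the 240 (70.0%) the gene had a BRG1 peak at one of its starts, so the gene counted as having both. Intergenic peaks without BRG1 had a median gap of 158 kb, and 592 of 1072 (55.2%) were over 100 kb away.

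The third antibody followed BRG1. At a TSS 3286 of 4487 NRF2 peaks on BRG1 (73.2%, 71.9% to 74.5%) also overlapped an ACTL6A peak, against 23 of 240 (9.58%, 6.47% to 14.0%) of those without BRG1. In introns the shares were 58.7% and 9.30%, and between genes 57.8% and 8.12%. Width and rank moved with these shares as given above.

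**Figure D3:**
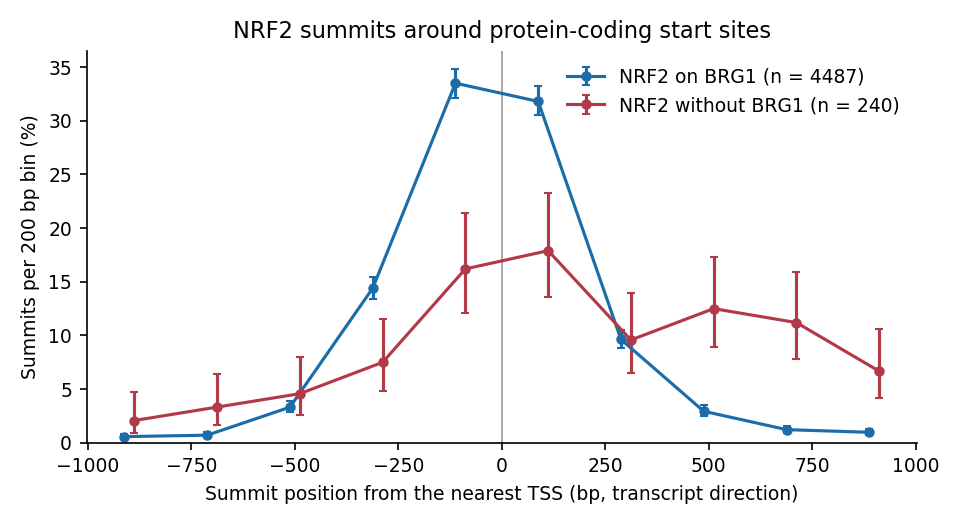
Position of NRF2 summits from the nearest protein-coding TSS in bp, positive in the direction of transcription, as the share of summits (%) in bins of 200 bp with Wilson 95% intervals. Summits on BRG1 peak at the start, while those without BRG1 are spread out to 1000 bp downstream.

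Seen from BRG1, NRF2 marked a minority of sites and mostly the strongest promoters. Of the 48455 BRG1 peaks, 6229 (12.9%, 12.6% to 13.2%) overlapped an NRF2 peak. At a TSS 4860 of 15151 (32.1%) did, in introns 586 of 17600 (3.33%) and between genes 476 of 10792 (4.41%). In the highest BRG1 quintile the share at a TSS was 57.3% and in the lowest 3.6%. In introns even the highest quintile reached only 14.0% (272 of 1936), so most strong intronic BRG1 peaks had no NRF2 peak.

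Counted by gene, nearly all genes with NRF2 also had BRG1 when the whole BRG1 list was used. A gene had a factor when any start of its protein-coding transcripts was at most 1 kb from a peak, and 19689 genes were counted. NRF2 was at 5529 genes (28.1%) and BRG1 at 12502 (63.5%). Both were at 5447 (27.7%), NRF2 without BRG1 at 82 (0.416%), BRG1 without NRF2 at 7055 (35.8%) and neither at 7105 (36.1%). Thus 98.5% of genes with NRF2 had BRG1 (98.2% to 98.8%), and 43.6% of genes with BRG1 had NRF2 (42.7% to 44.4%). With the 8032 highest BRG1 peaks only, 3749 genes had both, which was 67.8% (66.6% to 69.0%) of the genes with NRF2 and 66.2% (64.9% to 67.4%) of those with BRG1. Those 8032 peaks were at 5664 of the 19689 genes, and a shorter BRG1 list can only lower the share of NRF2 genes with BRG1. The near nesting was thus seen with the longer BRG1 list and not with the cut one. Of the 7187 genes without BRG1, 1.14% had NRF2.

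The rank of BRG1 at a gene went with the presence of NRF2. Genes whose highest BRG1 peak was in the highest quintile had NRF2 in 4156 of 6554 cases (63.4%). The shares in the following quintiles were 29.8%, 14.1%, 6.46% and 3.20%, the last being 13 of 406 genes. ACTL6A was at 79.8% of the genes with both and at 41.1% of those with BRG1 alone.

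Among genes with both, those with the highest ranked NRF2 peaks served RNA processing, transcription and translation. RBM39, a splicing factor, had the NRF2 peak of rank 3 (chr20:35741705-35742679) and a BRG1 peak of rank 1773. CDK12, a kinase of the elongating RNA polymerase, had NRF2 rank 12 and BRG1 rank 5426. RPS19, a protein of the small ribosomal subunit, had NRF2 rank 19 and BRG1 rank 2044. The BRG1 rank given for a gene is that of its highest BRG1 peak at any start. Ranks of the 2 lists are not on one scale, as the BRG1 list is the longer. As a place in the BRG1 list, these peaks lay in the top 3.66%, 11.2% and 4.22%.

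Others of this group were FAM86B1, with NRF2 rank 5 and the highest BRG1 peak of all, and TMEM18, with NRF2 rank 18 and BRG1 rank 38. FAM86B1 belongs to a family of near-identical copies and TMEM18 lay 50.5 kb from an IgG 2 peak, so both are less certain. NAA38, a subunit of an N-terminal acetyltransferase, and CYB5D1 shared a divergent promoter with NRF2 rank 14 and BRG1 rank 9282. RC3H2, an RNA-binding ubiquitin ligase, had NRF2 rank 15 and BRG1 rank 3637.

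The genes with NRF2 and no BRG1 were few and mostly of low rank. Their 79 peaks had a median rank of 5608 of 8032, 5 were in the highest quintile and 26 in the lowest. For 34 of the peaks a BRG1 peak lay within 10 kb, and 22 of the 82 genes had one within 3 kb of a start. ACTL6A was at 13 of the 82 genes, and at none of them had a BRG1 peak been removed for overlapping IgG 2.

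ZNF300, a KRAB zinc finger gene, had the highest ranked of these peaks, rank 169 (chr5:150904554-150905288), which covered the TSS and lay 114039 bp from the nearest BRG1 peak. HS3ST3B1, a heparan sulfate sulfotransferase, had a peak of rank 861 over its TSS, 94307 bp from BRG1. PAX9, a transcription factor of foregut and tooth, had one of rank 1755 and 341011 bp from BRG1. At these genes no BRG1 peak was near, and no ACTL6A peak was at the start.

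MGST1 had a peak of rank 1984 (chr12:16348613-16349206), 816 bp from the start of a transcript and 359663 bp from BRG1. S100A16, a calcium-binding protein, had rank 1155 with BRG1 at 6225 bp, and CIBAR1, a ciliary protein, had rank 998 with BRG1 at 27806 bp. SLX4IP (rank 318) and ETFB (rank 1625), an electron transfer flavoprotein subunit, entered by the distance rule alone. Their NRF2 peaks overlapped a BRG1 peak that lay more than 1 kb from the start. None of the 8 highest peaks lay within 100 kb of an IgG 2 peak.

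The genes with the highest ranked BRG1 peaks and no NRF2 were promoters in the top 0.262% of the BRG1 list. BRD3OS (BRG1 rank 28, chr9:134024898-134025464), SPATC1L (34), FAM117A (44), BICDL1 (78), a dynein adaptor, and TRIOBP (89), an actin-bundling protein, came first. They were followed by the divergent pair OGFOD3 and HEXD (101), by DCXR (123), a xylulose reductase, and by OSBPL2 (127), an oxysterol-binding protein. ACTL6A was at the start of all of them except DCXR. A high BRG1 rank therefore did not bring an NRF2 peak at every promoter.

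Lists of genes were compared with the 43.6% of all BRG1 genes that had NRF2. Of 30 known NRF2 targets, 15 had both factors, 0 had NRF2 alone, 9 had BRG1 alone and 6 had neither. The share among targets with BRG1 was 62.5% (15 of 24, 42.7% to 78.8%), an interval that includes the value of all genes. At 14 of the 15 the NRF2 peak itself overlapped a BRG1 peak, the exception being TALDO1, a transaldolase, whose peaks were 263 bp apart.

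In the thioredoxin system, TXNRD1 (thioredoxin reductase) had NRF2 rank 48 and BRG1 rank 3661, TXN had 199 and 1420, and PRDX1 had 507 and 7261. These are among the highest NRF2 ranks of the list, beside NQO1 with rank 150 and BRG1 rank 2230. Of the enzymes of the pentose phosphate pathway and NADPH supply, PGD had NRF2 rank 1052 and BRG1 rank 1497, while TKT and ME1 had BRG1 alone. UGDH (NRF2 rank 613, BRG1 rank 611) and CBR1 (772 and 13621) of detoxification had both.

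Heme and iron genes were divided. HMOX1, heme oxygenase, had NRF2 at rank 5399 and BRG1 at 12703, and BLVRB, a biliverdin reductase, had 1574 and 235. FTH1 and FTL, the ferritin chains, had BRG1 alone at ranks 6757 and 11228.

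In glutathione synthesis, the catalytic subunit GCLC had NRF2 at rank 2951 on a BRG1 peak of rank 9656, with a BRG1 peak of rank 837 at another start, while the modifier subunit GCLM had BRG1 at rank 1154 and no NRF2 peak. SLC7A11, the cystine transporter, had BRG1 at rank 22488 alone, and its partner chain SLC3A2 had both (1970 and 1911). GSR, glutathione reductase, had BRG1 at rank 666 alone. Neither factor was at a start of GPX2, ABCC2, ABCC3, AKR1B10, AKR1C1 or AKR1C3.

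The other 24 genes of glutathione and ferroptosis gave 14 with both, 0 with NRF2 alone, 9 with BRG1 alone and 1 (GPX3) with neither. NRF2 was thus at 14 of the 23 with BRG1 (60.9%, 40.8% to 77.8%). That interval includes the 43.6% of all BRG1 genes. NCOA4, the receptor for ferritin breakdown, had NRF2 rank 73 on a BRG1 peak of rank 1348, with the BRG1 peak of rank 1048 at another start. CTH, of cysteine synthesis, had 902 and 3055. GPX4, which reduces lipid peroxides, had 3783 and 5562, and AIFM2, a reductase of coenzyme Q, had 5797 and 36837 in peaks 164 bp apart. ACSL4, which makes lipids open to peroxidation, had the low ranks 7135 and 23277. GCH1, CHAC1, PTGS2, POR, ALOX5 and ALOX15 were among those with BRG1 alone.

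The gene of NRF2 itself had both factors at its start. NFE2L2 had NRF2 rank 2639 and BRG1 rank 5682, and KEAP1 had 4334 and 12009. CUL3 and RBX1, which with KEAP1 form the ligase that marks NRF2 for breakdown, had NRF2 ranks 1196 and 365. GSK3B, a kinase of the second breakdown route, had rank 228. In all 10 of 15 genes of NRF2 and its control had both (66.7%, 41.7% to 84.8%), an interval that includes the 43.6% of all BRG1 genes, and the 5 with BRG1 alone were NFE2L3, MAFF, MAFK, BACH1 and BACH2. BACH1 and BACH2 are repressors that compete for the ARE.

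SWI/SNF genes were split evenly, with 14 of 29 under both factors, 14 under BRG1 alone and ACTL6B, a neuronal subunit, under neither. NRF2 was thus at 14 of the 28 with BRG1 (50.0%, 32.6% to 67.4%). That interval includes the 43.6% of all BRG1 genes. SMARCD2 had NRF2 rank 106 and BRG1 rank 630, ARID1A 667 and 13815, and ACTL6A 867 and 3263. SMARCA4, which encodes BRG1, had BRG1 at rank 12164 and no NRF2.

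Of the AP-1 factors, FOSL2 (959 and 428), JUN (1212 and 3033), ATF3 (2168 and 238), JUND and FOSB had both, with the peaks of FOSB 2370 bp apart. FOS, FOSL1 and JUNB had BRG1 alone in spite of BRG1 ranks of 4375, 531 and 4578. Of 14 genes of YAP and TEAD signalling, all with BRG1, 6 had both (42.9%, 21.4% to 67.4%), TEAD2 at NRF2 rank 157 and BRG1 rank 45. Among AP-1 genes with BRG1 the share was 5 of 10 (50.0%, 23.7% to 76.3%). Both intervals include the 43.6% of all BRG1 genes.

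Of 24 gut lineage factors, 4 had both (FOXA3, KLF4, KLF5 and PDX1), 13 had BRG1 alone and 7 neither. The share with NRF2 among those with BRG1 was 23.5% (9.56% to 47.3%), an interval that also includes the value of all genes. GATA6 (BRG1 rank 6976), SOX9 (4152) and ELF3 (5419) were among the 13. Keratins (0 of 11 BRG1 genes) and HOX genes (1 of 18) had almost no NRF2, with upper limits of 25.9% and 25.8%. Their BRG1 peaks ranked low, at medians of 13935 and 19343 against 9086 for all genes with BRG1. Below the highest BRG1 quintile 0 of 6 keratins and 0 of 14 HOX genes had NRF2, against 21.7% of all such genes. The upper limits there were 39.0% and 21.5%. In the highest quintile it was at 0 of 5 and 1 of 4, against 63.4% of all such genes. Of 390 olfactory receptor genes, 379 had neither factor, against 36.1% of all genes.

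Housekeeping groups lay near or somewhat above all genes. NRF2 was at 38 of 70 cytosolic ribosomal protein genes with BRG1 (54.3%, 42.7% to 65.4%), 28 of 46 proteasome genes (60.9%, 46.5% to 73.6%), 39 of 78 respiratory chain genes (50.0%) and 30 of 74 mitochondrial ribosomal protein genes (40.5%). Of 178 zinc finger genes of chromosome 19 with BRG1, 96 had NRF2 (53.9%, 46.6% to 61.1%), and 4 more had NRF2 alone.

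The replication-dependent histone genes had the highest share of NRF2 among the lists. These genes make the core and linker histones in S phase and sit in dense clusters. Of 69 genes, 46 had both factors, 3 (H1-3, H2BC21 and H2AC20) NRF2 alone, 10 BRG1 alone and 10 neither. The NRF2 peak of H1-3 overlapped a BRG1 peak more than 1 kb from its start, and H2BC21 and H2AC20 shared 1 NRF2 peak. NRF2 was thus at 82.1% of those with BRG1 (46 of 56, 70.2% to 90.0%). Their 49 genes with NRF2 rested on 35 distinct peaks, since neighbouring genes share promoters, so the interval is too narrow.

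BRG1 did not rank high at the histone genes. Their median BRG1 rank was 15446 against 9086 for all genes with BRG1, while their median NRF2 rank was 2932 against 2993. Where the BRG1 peak was below the highest quintile, 29 of 39 histone genes (74.4%, 58.9% to 85.4%) had NRF2, against 1291 of 5948 such genes overall (21.7%, 20.7% to 22.8%). H2BC5 and H1-4 shared the NRF2 peak of rank 255, which lay on a BRG1 peak of rank 39545, while the highest BRG1 peak of H1-4 ranked 22083 and lay 546 bp from the NRF2 peak. ACTL6A was at 19 of the 46 with both (41.3%), against 79.8% of all genes with both. Histone genes are near-identical copies, and the authors kept uniquely mapped reads only, so counts at single copies are uncertain.

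The sequence at the summits separated NRF2 peaks with BRG1 from those without it, mainly by base composition. In 200 bp around the summit, mean GC content was 65.2% ± 7.77 (SD over 4487 windows) at TSS peaks on BRG1 and 58.4% ± 9.14 (240 windows) at those without. The median number of CpG sites was 17 against 7. In introns GC content was 59.0% against 53.8%, and between genes 60.4% against 47.8%. The GC box GGGCGG, bound by SP1-like factors, was in 55.9% of TSS windows on BRG1 and 27.9% of those without, in introns in 26.2% and 7.49%, and between genes in 30.6% and 4.48%. All starts of MANE Select transcripts, a single transcript per gene, held it in 54.4%. With only peaks farther than 100 kb from IgG 2, the GC box was in 26.3% and 7.03% of intronic windows and in 31.9% and 7.35% between genes. The part of summit position in these gaps was not tested.

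The AP-1 heptamer and the CTCF-like pattern CCNNNAGNNGGC also went with BRG1 away from starts. AP-1 was in 13.3% (72 of 543) of intronic NRF2 windows on BRG1, in 5.92% (49 of 828) of those without BRG1, and in 18.2% of intronic BRG1 windows without NRF2. In windows 1 kb to each side of the NRF2 summits on BRG1 it was in 4.88%. The CTCF-like pattern was in 7.92% and 3.74% of intronic NRF2 windows. With only peaks farther than 100 kb from IgG 2, AP-1 was in 13.5% and 6.34% of intronic windows.

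The ARE core separated the classes less. It was in 10.3% (9.46% to 11.2%) of TSS windows on BRG1 and 8.33% (5.46% to 12.5%) of those without, and all MANE Select starts held it in 10.0%. In introns the shares were 11.4% (9.01% to 14.4%) and 9.06% (7.29% to 11.2%). Between genes they were 13.5% (10.6% to 17.1%) and 8.02% (6.54% to 9.80%), with 7.11% and 7.88% in the flanks. With only peaks farther than 100 kb from IgG 2, the core was in 12.2% and 8.97% of intronic windows and in 13.6% and 8.09% between genes. Away from starts, windows of BRG1 peaks without NRF2 held the core in 11.9%, against 8.72% of NRF2 peaks without BRG1. A match is a description of letters, not a bound site.

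Among the strongest BRG1 promoters, those with and without NRF2 were much alike in these letters. In the highest BRG1 quintile at a TSS, the GC box was in 67.5% of 3401 windows on NRF2 and 65.3% of 2532 without it, and the ARE core was in 12.2% and 10.9%. The CCAAT box, bound by NF-Y, was in 34.7% (33.1% to 36.3%) and 28.7% (26.9% to 30.5%). AP-1 was in 3.73% and 5.81%.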

How the data were processed

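Peak lists from CUT&Tag libraries of SNU638 cells were used, 1 library each for anti-NRF2, anti-BRG1 and anti-ACTL6A and 2 for IgG. The authors trimmed paired-end reads of 150 bp, mapped them to hg38 with BWA, kept uniquely mapped reads and called peaks with MACS2 at q below 0.05. The submitters' processing notes also name fastp 0.23.0 and HOMER 4.11. The control given to the caller is not given in the sources used here. The deposited −log10 q-value of each peak gave its rank within its list, and the deposited summit offset gave its summit.

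Of 9045 NRF2 and 48793 BRG1 peaks, 0 passed the end of a chromosome of the GRCh38 sequence used. Starts, exons and gene bodies were those of GENCODE release 44. A peak at most 1 kb from any protein-coding transcript's start was at a TSS, and otherwise its summit decided between exon, intron and no gene. An overlap of 1 bp counted. Motifs were searched on both strands in 200 bp around summits, and patterns may overlap each other.

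No test was made, since each antibody had 1 library. Named genes were the 8 highest ranked peaks of each class and the members of gene lists, of which some are not reported here. The members and lists were chosen with earlier results of these data known. Routines were tested on simulated peaks. Alternatives changed the IgG filter, the q threshold, the overlap, the TSS distance, the annotation and the ARE core. Python 3.11.15, NumPy 2.4.6, pandas 2.3.3, SciPy 1.17.1, pysam 0.24.0 and matplotlib 3.10.9 were used.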

Additional observations from a re-analysis of the deposited data

How the results depend on the processing

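Of 85 values under other settings, 35 stayed within their interval or within 1.5 times their count and 50 moved. Shares and counts cannot change sign, and the differences between quintiles, which could, all stayed positive. Leaving out IgG 1 peaks too, a list of 11 peaks, changed none of the values as printed. No paired analysis was possible because no library has a partner of the same antibody. The values below are the shares of NRF2 peaks on BRG1 over all places, at a TSS, in introns and between genes, then the share of BRG1 peaks on NRF2, and then the difference in points between the highest and lowest NRF2 quintile, where they moved from 71.6%, 94.9%, 39.6%, 28.2%, 12.9% and 48 points.

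With IgG 2 peaks kept, the share was 66.2% over all places and 23.3% between genes, that of BRG1 was 13.3% and the difference was 26.2 points. With peaks within 100 kb of IgG 2 left out too, a setting chosen after seeing the data, the values were 77.1%, 40.3% between genes and 51.7 points. With the −log10 q required to reach 5 in each list they were 84.9%, 97.6%, 60.5%, 34.8%, 14.4% and 12.1 points, with 3332 genes under both factors and 42 under NRF2 alone. With as many BRG1 peaks as NRF2 peaks, the highest ones, they were 44.9%, 64.1%, 16.8%, 13.4% and 45.3%. Then 1780 genes were under NRF2 alone and 1915 under BRG1 alone. The near nesting of NRF2 genes in BRG1 genes was not seen with that shorter list, which can only hold fewer BRG1 genes.

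When an overlap had to cover 50% of each peak they were 48.1%, 66.7%, 22.1%, 15.5%, 7.97% and 55.7 points. With summits within 200 bp they were 50.0%, 66.5%, 26.5%, 20.8%, 8.30% and 43.9 points. With peaks within 1 kb of each other they were 75.4%, 97.8%, 46.4%, 32.3%, 15.4% and 39.4 points. With a TSS distance of 250 bp the share was 96.7% at a TSS and 42.7% in introns, and with 3 kb it was 93.3% and 37.0%. With gene bodies of protein-coding genes only it was 35.8% between genes. The order of TSS above intron above intergenic held in these settings, except that leaving out peaks near IgG 2 made the last 2 shares equal at 40.3%.

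The ARE core was in 10.9% of NRF2 windows on BRG1 and 8.68% of those without. It was in 5.27% and 3.64% with a purine required before it, in 32.1% and 32.2% as TGANNNNGC, and in 12.7% of those on BRG1 away from a TSS. The causes were not tested. Without replicates, a difference in binding, a difference between libraries and a peak missed for depth cannot be told apart.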

Other observations

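Chromosome 8 held more NRF2 peaks for its BRG1 peaks than the other autosomes. It had 551 NRF2 and 1725 BRG1 peaks, or 31.9 NRF2 peaks per 100 BRG1 peaks, against 11.1 to 20.7 on the other autosomes. Only 49.5% of its NRF2 peaks (273 of 551, Wilson 95% interval 45.4% to 53.7%) were on BRG1, where the other autosomes ran from 56.6% (chromosome 20) to 83.6% (chromosome 17). At its starts the share was 91.6% of 225 peaks, within the range of 90.7% to 100.0% on the other autosomes. Away from starts it was 20.6% of 326 peaks, and 23% (18.3% to 28.5%) of the 261 that lay farther than 100 kb from any IgG 2 peak, against 31.5% to 72.2% on the other autosomes.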
